A study of Mus musculus with 7 samples.

Results

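The troponin genes encode the 3 subunits of the calcium switch on the thin filament of striated muscle, and 7 of them (Tnnt1, Tnnt2, Tnnt3, Tnni1, Tnni2, Tnni3 and Tnnc2) were taken by gene symbol from the 20343 genes of the count table as analysed. Messenger RNA had been sequenced from the apical myocardium of NSG-DR1 mice (strain given as NSG-DRB1*0101), an immunodeficient strain with a human HLA-DR1 transgene. There were 4 control hearts, left untreated, and 3 transferred hearts, taken 6 weeks after the mice had been given human CD4+ T cells. Both groups share the strain and the transgene, the controls received no other cells in place of the T cells, and the labels give neither age nor the donors of the T cells. Each heart has its own identifier, and the p-values rest on the spread between these hearts. In the edgeR fit, the spread of each gene is estimated with information shared over all tested genes.

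Troponin T anchors the complex to tropomyosin, troponin I inhibits the interaction of actin and myosin, and troponin C binds calcium and releases that inhibition. Troponin T and troponin I each come in slow skeletal (Tnnt1, Tnni1), cardiac (Tnnt2, Tnni3) and fast skeletal (Tnnt3, Tnni2) forms from separate genes. Troponin C has a form shared by heart and slow fibres (Tnnc1) and a fast skeletal form (Tnnc2). Slow skeletal troponin I is the main form of the fetal heart and is replaced by Tnni3 after birth, and cardiac troponins T and I released into blood are the standard clinical markers of myocardial injury. Tnnc1 is not analysed here, because the analysed table covers chromosomes 1 to 7 and the start of chromosome 8.

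The T and I genes lie next to each other in the mouse genome, and each neighbourhood held members at very different levels. Positions are those of the deposited table, which matched the GRCm38.p6 annotation. On chromosome 1, Tnni1 (135783033 to 135810989, plus strand) and Tnnt2 (135836315 to 135852268, plus strand) have Lad1 between them. On chromosome 7, Tnnt1 (4504569 to 4515975, minus strand) ends 2329 bases from Tnni3 (4518305 to 4522718, minus strand). Further along chromosome 7, Tnni2 (142441816 to 142444410, plus strand) and Tnnt3 (142498771 to 142516213, plus strand) flank Lsp1, a gene of leukocytes, and Tnnc2 lies on chromosome 2 (164777161 to 164779734, minus strand). Counts were taken over each gene's combined exons, from 693 bases for Tnnc2 to 2203 bases for Tnnt3, so splice forms of a gene, such as fetal and adult forms of cardiac troponin T, cannot be told apart.

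The promoters of the first 2 neighbourhoods are shown because each holds 1 abundant troponin gene and 1 at a far lower level in these hearts. RefSeq promoter windows of GRCm38.p6, 250 bases before to 50 after an annotated start, were found for 5 of the 7 genes. Tnnt3 and Tnni2 had none. The windows are chr1:135836084-135836383 for Tnnt2, chr7:4522479-4522778 for Tnni3, chr7:4515926-4516225 for Tnnt1 and chr1:135799171-135799470 for Tnni1, each read 5′ to 3′ on the gene's strand. Capitals mark matches to any of the motifs searched on both strands, which were the core promoter box TATAAA, the muscle enhancer element CATTCC bound by TEAD factors, the element AGATAA bound by zinc-finger factors of the heart, and the motifs of MEF2 and of serum response factor (CArG box), and no 2 matches overlapped.
Tnnt2: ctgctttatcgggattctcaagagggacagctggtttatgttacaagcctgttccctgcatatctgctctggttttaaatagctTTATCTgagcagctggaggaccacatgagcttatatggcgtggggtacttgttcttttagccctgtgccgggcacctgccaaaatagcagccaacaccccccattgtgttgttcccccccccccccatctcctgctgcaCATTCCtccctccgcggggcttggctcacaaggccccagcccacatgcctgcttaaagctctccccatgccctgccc
Tnni3: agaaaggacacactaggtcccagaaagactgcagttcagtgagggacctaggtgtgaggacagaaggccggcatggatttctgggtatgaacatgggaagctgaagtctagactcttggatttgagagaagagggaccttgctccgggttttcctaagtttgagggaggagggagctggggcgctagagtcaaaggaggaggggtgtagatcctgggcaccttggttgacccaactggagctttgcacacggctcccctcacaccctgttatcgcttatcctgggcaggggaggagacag
Tnnt1: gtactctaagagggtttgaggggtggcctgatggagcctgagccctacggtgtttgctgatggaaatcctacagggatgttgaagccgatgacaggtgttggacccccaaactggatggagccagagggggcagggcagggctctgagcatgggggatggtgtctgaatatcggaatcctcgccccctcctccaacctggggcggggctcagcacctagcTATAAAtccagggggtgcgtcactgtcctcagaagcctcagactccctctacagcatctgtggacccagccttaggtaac
Tnni1: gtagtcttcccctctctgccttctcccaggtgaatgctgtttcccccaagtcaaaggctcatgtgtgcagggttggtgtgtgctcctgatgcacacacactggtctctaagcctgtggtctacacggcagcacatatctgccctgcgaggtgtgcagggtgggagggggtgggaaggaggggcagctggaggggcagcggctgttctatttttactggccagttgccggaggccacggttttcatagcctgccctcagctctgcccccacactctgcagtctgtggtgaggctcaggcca

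The Tnnt2 window held CATTCC with its first base at -27 from the start, a motif present in 14.7% of all 32851 promoter windows. It also held AGATAA on the minus strand at -166, a motif present in 11.2% of windows. The Tnnt1 window held TATAAA at -30, as 13.6% of windows did. MEF2 (3.19% of windows) and the CArG box (1.63% of windows) matched in none of the 5 windows, and the Tnni3, Tnni1 and Tnnc2 windows held none of the 5 motifs. For Tnni1 and Tnnt2, 2 starts each are listed and the more upstream is shown. The whole Tnni1 window and most of the Tnni3 window lie inside the gene's span, since the table starts those genes further upstream.

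Levels are given as counts-per-million (CPM), scaled between libraries over the analysed genes, and per kilobase of exon where genes are compared with each other. The hearts held 16402194 to 25190580 counts, so 3 counts correspond to between 0.119 and 0.183 CPM. The troponin genes together took from 2.87% to 3.43% of the analysed counts in a heart, and Tnnt2 and Tnni3 made up at least 99.8% of those troponin counts in every heart.

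Cardiac troponin T, Tnnt2, was the most abundant of the 7 troponin genes, with 14675 CPM per kilobase averaged over the 7 hearts, and by CPM per kilobase it ranked between 2 and 3 in each heart among the genes of the analysed table, which leaves out the remaining chromosomes. Cardiac troponin I, Tnni3, followed with 11133 CPM per kilobase and ranked between 4 and 5. Tnnt2 was 1.32 times as high as Tnni3 per kilobase, and was the higher of the 2 in 7 of 7 hearts. The next gene was Tnnt1 at 26.5 CPM per kilobase, with Tnni3 420 times as high. Tnnt1 was in turn 6.97 times as high as Tnni2, which stood at 3.805 CPM per kilobase. The ranges of these 4 genes over the 7 hearts did not overlap, and all lay above Tnni1. Tnni1 (0.2998), Tnnc2 (0.233) and Tnnt3 (0.190 CPM per kilobase) formed the low end, and their ranges overlapped, so their order could not be told.

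**Figure D1:**
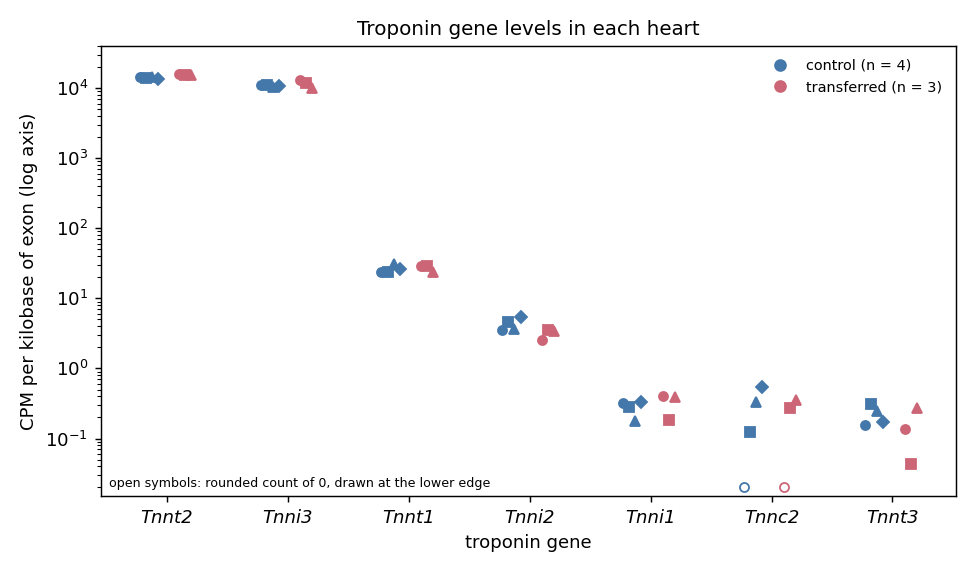
Level of each troponin gene in each of the 7 hearts, as CPM per kilobase of exon on a log axis; circles, squares, triangles and diamonds are hearts 1, 2, 3 and 4 of a group, and open symbols are rounded counts of 0. The cardiac genes Tnnt2 and Tnni3 lie above 10000 CPM per kilobase in every heart, Tnnt1 between 23.4 and 30.8, and Tnni1, Tnnc2 and Tnnt3 below 0.6.

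The question for the comparison was whether hearts of mice given human CD4+ T cells differed in troponin messenger RNA from untreated hearts. No troponin gene passed the edgeR quasi-likelihood test: of 6 tested members 0 had an adjusted p under 0.05, and 0 had an unadjusted p under 0.05. Over all 7667 tested genes, 0.235% were called and 12.4% had an unadjusted p under 0.05. DESeq2 called 0 of the 6 and 250 of all genes, with Tnnt2 the 1 member at an unadjusted p under 0.05, beside 988 of all genes. With limma-voom 0 genes of the whole table were called, so its 0 of 6 carries no information, and 0 members had an unadjusted p under 0.05, beside 907 of all genes. Tnnc2 was the only member below the filter on low counts.

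Tnnt2 was at 18711, 18296, 19030 and 17490 CPM in control hearts 1 to 4 and at 20440, 20104 and 19887 CPM in transferred hearts 1 to 3. All 3 transferred hearts lay above all 4 control hearts, and the gap was small. Groups that did not overlap, with the transferred hearts higher, were found for 5.99% of all tested genes. The means were 18382 ± 666 CPM in control hearts (SD, n = 4) and 20144 ± 279 CPM in transferred hearts (SD, n = 3). On the log2 scale the fitted difference was 0.13, standard error 0.09 (edgeR adjusted p = 0.595). The 95% interval ran from -0.06 to 0.33, that is from 0.958-fold to 1.25-fold. Tnnt2 varied little within groups, with a within-group SD of its log2 CPM of 0.043. That was rank 4 from the least variable of 138 genes with at least 1000 CPM, whose median SD was 0.129. The edgeR standard error also draws on the spread of other genes and does not rest on this SD alone.

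Tnni3 was at 12665, 12362, 11664 and 12176 CPM in control hearts 1 to 4 and at 14491, 13117 and 11275 CPM in transferred hearts 1 to 3. Transferred hearts 1 and 2 lay above every control heart and transferred heart 3 lay below every one, so the groups overlapped. The log2 fold change was 0.09, standard error 0.11, with a 95% interval from -0.15 to 0.32 (edgeR adjusted p = 0.808). Without transferred heart 1 the log2 fold change was -0.001. The coefficient of variation of Tnni3 was 3.44% in control hearts and 12.4% in transferred hearts, against 3.62% and 1.39% for Tnnt2. The difference in spread was not tested.

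Tnnt1, which encodes slow skeletal troponin T, was detected in every heart with 613 to 1195.5 counts. It was at 35.3, 35.4, 45.9 and 38.7 CPM in control hearts 1 to 4 and at 42.7, 43.9 and 34.98 CPM in transferred hearts 1 to 3. Control heart 3 was the highest and transferred heart 3 the lowest, and the groups overlapped. The log2 fold change was 0.06, standard error 0.12, with a 95% interval from -0.21 to 0.34 (edgeR adjusted p = 0.886). For Tnnt2, Tnni3 and Tnnt1 alike, a fold change of 1.5 in either direction lay outside the 95% interval.

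**Figure D2:**
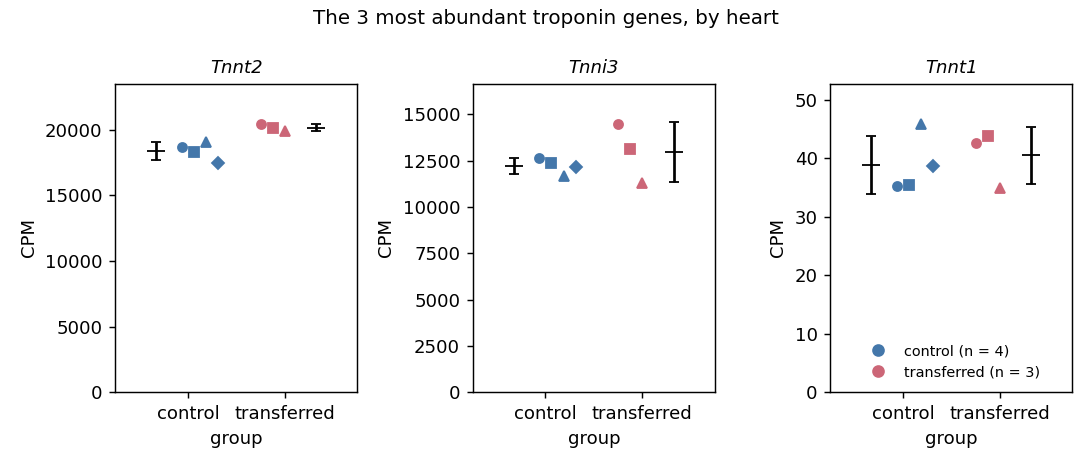
CPM of Tnnt2, Tnni3 and Tnnt1 in each heart, on linear axes that start at 0; circles, squares, triangles and diamonds are hearts 1, 2, 3 and 4 of a group, and black bars give the group mean and SD beside its points. The 3 transferred hearts lie between 19887 and 20440 CPM for Tnnt2, above the control hearts, and the groups overlap for Tnni3 and Tnnt1.

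Fast skeletal troponin I, Tnni2, was low but measurable, with 36 to 77 counts a heart and no fractional value in any. It was at 2.53, 3.31, 2.65 and 3.91 CPM in control hearts 1 to 4 and at 1.82, 2.59 and 2.47 CPM in transferred hearts 1 to 3. Only transferred heart 2 reached the control range, just above control heart 1. The log2 fold change was -0.43, standard error 0.25, with a 95% interval from -0.99 to 0.14, that is from 0.503-fold to 1.10-fold (edgeR adjusted p = 0.550, unadjusted p = 0.122). The adjacent leukocyte gene Lsp1 differed by 0.25 on the log2 scale (edgeR adjusted p = 0.453), and Syt8 on its other side had 2 counts, both in transferred heart 2.

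Slow skeletal troponin I, Tnni1, was near the detection limit in all hearts. It had 10, 9.5, 7 and 8 counts in control hearts 1 to 4 and 12, 6.5 and 12 counts in transferred hearts 1 to 3. After rounding and summing, the 35 control counts correspond to 0.408 CPM (exact Poisson 95% interval 0.284 to 0.568) and the 30 transferred counts to 0.490 CPM (0.331 to 0.699). Only counting error enters these intervals, and reads that carry no molecular identifier are not independent molecules. The log2 fold change was 0.24 with a 95% interval from -0.77 to 1.26 (edgeR adjusted p = 0.876), so the interval includes a 2-fold higher level at this depth. Leaving out 1 heart moved the value to between 0.06 (without control heart 3) and 0.52 (without transferred heart 2), and it was 0.07 without transferred heart 1 and 0.09 without transferred heart 3.

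Fast skeletal troponin T, Tnnt3, had 7, 16, 13.5 and 6 counts in control hearts 1 to 4 and 6, 2 and 12.5 counts in transferred hearts 1 to 3. Transferred heart 2 was the lowest, and transferred heart 3 lay within the control range. The log2 fold change was -0.58 with a 95% interval from -1.88 to 0.72 (edgeR adjusted p = 0.745), while without transferred heart 2 it was -0.13 and without transferred heart 3 it was -1.30. The span of Tnnt3 overlaps that of the antisense transcript Prr33 by 8001 bases, and the strand setting of the counting is not given in the sources used here. Prr33 had 419 to 665 counts in control hearts and 471, 287 and 379 in transferred hearts 1 to 3, so transferred heart 2 was lowest for both genes. No 75-base stretch of the GENCODE transcripts of Tnnt3 occurred in a transcript of another gene, and the part of Prr33 reads in the Tnnt3 counts was not tested.

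Fast skeletal troponin C, Tnnc2, had 0, 2, 6 and 6.5 counts in control hearts 1 to 4 and 0.5, 4 and 5 counts in transferred hearts 1 to 3. Summed and rounded, 14 control counts correspond to 0.163 CPM (exact Poisson 95% interval 0.089 to 0.274). The 9 transferred counts correspond to 0.147 CPM (0.067 to 0.279). Both are close to the level of 3 counts, and Tnnc2, below the filter, was not tested between the groups. Of the 75-base stretches in its GENCODE transcripts, 35.03% also occurred in transcripts of Ube2c, a cell-cycle gene read from the opposite strand. Ube2c had 31, 94, 97 and 125 counts in control hearts 1 to 4 and 65, 71 and 24 counts in transferred hearts 1 to 3, more than Tnnc2 in every heart. How many of the few Tnnc2 counts came from Ube2c was not tested. Of the other members, Tnni3 shared 0.536% of its 75-base stretches, with its neighbour Dnaaf3. The remaining 5 shared none, and no member shared a stretch with another troponin gene.

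Ratios of 2 troponin genes within a heart, taken per kilobase of exon, do not depend on the scaling between libraries. For every 10000 counts per kilobase of Tnnt2, Tnnt1 had 16.5, 16.9, 21.1 and 19.3 in control hearts 1 to 4. The values were 18.3, 19.1 and 15.4 in transferred hearts 1 to 3. The groups overlapped, and the mean log2 ratio differed by -0.07 (two-sided exact permutation p = 0.600, adjusted p = 0.750). For every 10000 counts per kilobase of Tnni3, Tnni2 had 3.11, 4.17, 3.53 and 4.997 in control hearts 1 to 4. The values were 1.96, 3.07 and 3.41 in transferred hearts 1 to 3. Transferred heart 1 was the lowest and transferred heart 3 lay within the control range. The mean log2 ratio differed by -0.50, from -11.32 ± 0.30 (SD, n = 4) to -11.82 ± 0.42 (SD, n = 3), with a two-sided exact permutation p of 0.114 and 0.571 after adjustment.

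The slow to cardiac ratio of troponin I, Tnni1 to Tnni3, was between 0.172 and 0.309 per 10000 in control hearts and between 0.160 and 0.392 in transferred hearts. Its mean log2 value differed by 0.10 (two-sided exact permutation p = 0.800, adjusted p = 0.800). The fast to cardiac ratio of troponin T, Tnnt3 to Tnnt2, was between 0.108 and 0.223 per 10000 in control hearts and between 0.028 and 0.176 in transferred hearts. Its mean log2 value differed by -0.91, with an SD of 1.21 among the transferred hearts (two-sided exact permutation p = 0.229, adjusted p = 0.571). The ratio of cardiac troponin I to cardiac troponin T was 0.784, 0.783, 0.710 and 0.806 in control hearts 1 to 4 and 0.821, 0.756 and 0.657 in transferred hearts 1 to 3. The highest and the lowest value both came from transferred hearts, and the mean log2 ratio differed by -0.05 (two-sided exact permutation p = 0.600, adjusted p = 0.750). Of the 5 ratios, 0 passed the test, whose smallest possible p over the 35 splits of the hearts is 0.0286 before adjustment. A single ratio at that value would not pass after adjustment over 5, for which at least 3 ratios would have to reach it together.

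**Figure D3:**
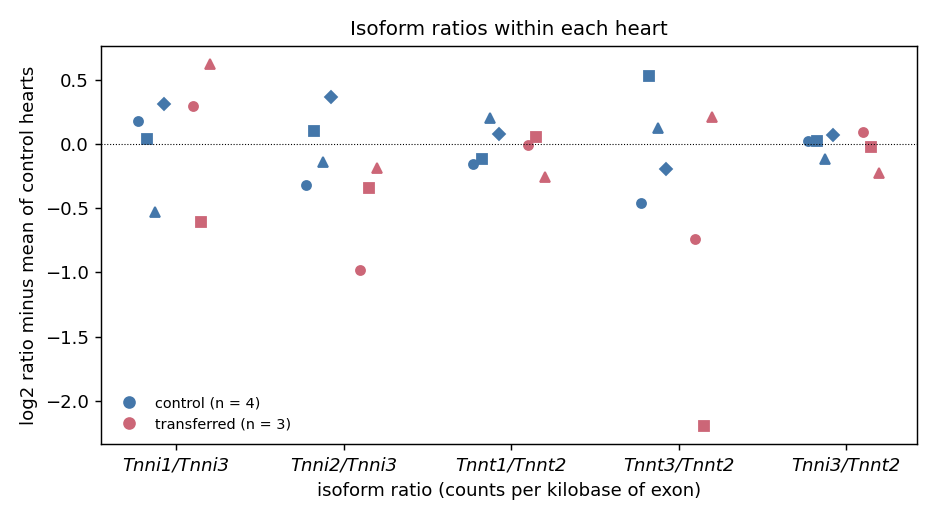
Isoform ratios in each heart as log2 values minus the mean of the control hearts, so 0 is the control mean; circles, squares, triangles and diamonds are hearts 1, 2, 3 and 4 of a group. The groups overlap in all 5 ratios, and the widest spread is that of Tnnt3 to Tnnt2, where transferred heart 2 lies lowest.

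Partners of troponin on the thin filament were read from the same fit. Of 17 listed genes 11 were in the table and tested, and 0 passed the edgeR test, with log2 fold changes above 0 for 6 and below 0 for 5. Their median log2 fold change was 0.02, beside 0.07 for the 6 tested troponin genes and -0.002 for all tested genes. Cardiac actin, Actc1, measured 38694 ± 7088 CPM in control (SD, n = 4) and 34374 ± 10891 CPM in transferred hearts (SD, n = 3) (edgeR adjusted p = 0.811). Lmod2 and Tmod1, which set the length of the thin filament at its pointed end, had log2 fold changes of -0.16 and -0.05, and Flnc, a filamin of the Z-disc, of 0.03. Nebl, encoding nebulette, was the only one of the 11 whose groups did not overlap, higher in transferred hearts by 0.23, standard error 0.08, on the log2 scale (edgeR adjusted p = 0.253). Groups that did not overlap, in either direction, were found for 11.2% of all tested genes. Nebl is named after its values were seen. Tnni3k, a kinase that binds cardiac troponin I, had a log2 fold change of 0.02.

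**Figure D4:**
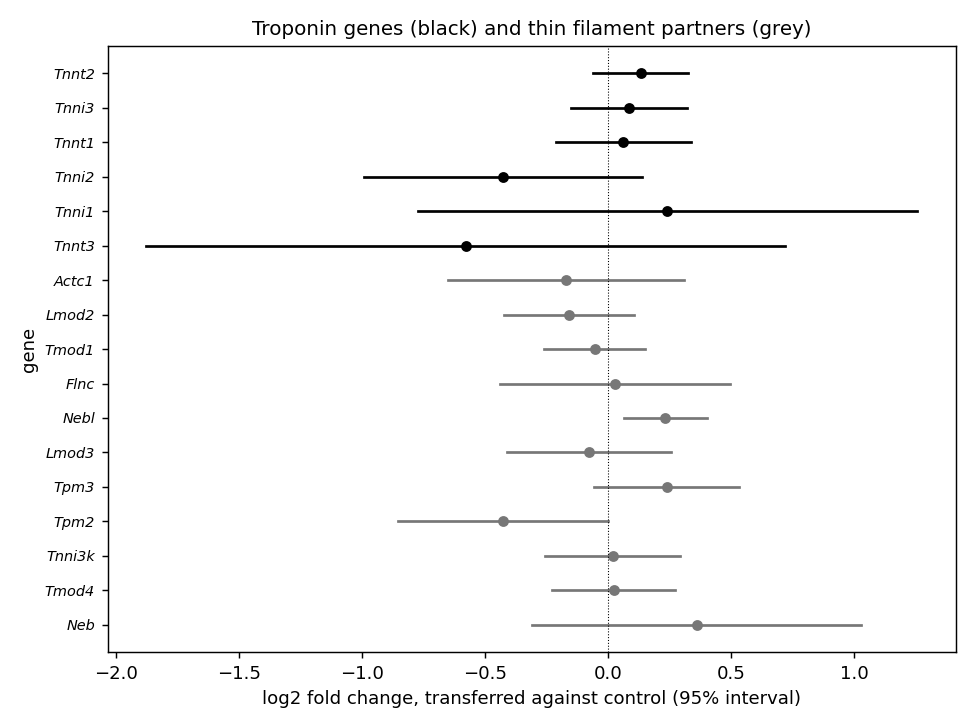
Log2 fold change of transferred against control hearts with its 95% interval from the edgeR fit, for the 6 tested troponin genes (black) and 11 thin filament partners (grey), each ordered by abundance. The intervals of all 6 troponin genes include 0, and they widen from Tnnt2 (-0.06 to 0.33) to Tnnt3 (-1.88 to 0.72) as counts decline.

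Of 15 thick filament genes, 7 were tested and 0 passed, with a median log2 fold change of -0.002. Myl2, the ventricular regulatory light chain, had a log2 fold change of 0.04, Mybpc3, cardiac myosin-binding protein C, of -0.002, Ttn, titin, of -0.02, and Myom2, an M-band protein, of 0.32 (edgeR adjusted p = 0.494). Of 8 cardiac stress genes, 4 were tested and 0 passed, and the log2 fold changes were -0.004 for Nppa and 0.18 for Nppb, the natriuretic peptides, -0.36 for Xirp2 and -0.42 for Mybphl. Over the 28 tested genes of these lists together with the skeletal and atrial lists, 0 passed the edgeR test and 2, Nebl and the calcium channel gene Cacna1s, had an unadjusted p under 0.05, beside 12.4% of all tested genes. DESeq2 called 0 of these 28, with 4 at an unadjusted p under 0.05, and limma-voom, which called 0 genes in all, had 2.

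Markers of other cells were read beside these values. Working cardiomyocyte markers were abundant in every heart. Summed over Ttn, Mybpc3, Myl2, Actc1 and Corin, the level was 69600 to 83755 CPM in control hearts and 62950 to 87703 CPM in transferred hearts. The groups did not overlap for Corin (log2 fold change 0.44, edgeR adjusted p = 0.117), nor for Cacna1s of the skeletal list. Both were higher in transferred hearts, where 5.99% of all tested genes were higher without overlap. Of 18 skeletal muscle fibre genes, 11 were in the table, and their summed level was 663 to 770.5 CPM in control hearts and 603 to 931 CPM in transferred hearts. Most of it came from Myl1, Klhl41, Mybpc2 and Tmod4, at 313, 212, 65.1 and 54.85 CPM in control hearts. Casq1 measured 21.8 CPM in control hearts. Mylpf, the fast regulatory light chain, was among the lowest genes of the list. It had 1.41 ± 0.191 CPM in control hearts (SD, n = 4) and 1.25 ± 0.267 CPM in transferred hearts (SD, n = 3). Atp2a1, the fast calcium pump, had 0.720 ± 0.154 and 0.478 ± 0.203 CPM, and Ampd1 had 2 counts over all 7 hearts. The log2 fold changes were -1.03 for Ryr1, the calcium release channel, -0.58 for Atp2a1 and -0.18 for Mylpf, and 0.43 for Casq1 (calcium storage), 0.36 for Neb (thin filament) and 0.33 for Cacna1s (voltage sensor). Of the 10 tested, 0 passed the edgeR test, with log2 fold changes above 0 for 6 and below 0 for 4. The part of skeletal muscle in the Tnni2, Tnnt3 and Tnnc2 counts was not tested.

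Atrial marker Bmp10 had 12 counts over all hearts, while Nppa, the other atrial marker in the table, measured 2866 ± 706 CPM in control (SD, n = 4) and 2857 ± 1689 CPM in transferred hearts (SD, n = 3). Of 3 leukocyte genes 1 passed the test: Coro1a rose by 1.14 on the log2 scale (edgeR adjusted p = 0.0384), where 0.235% of all tested genes were called. That call was lost with limma-voom, with the form of the animal identifier as a covariate, in the hearts whose identifiers are numbers alone, and without control heart 1, 2, 3 or 4 or transferred heart 2, where the adjusted p lay between 0.0682 and 0.157. Over all 15 alternatives the log2 fold change of Coro1a lay between 0.91 and 1.27. Ptprc, which marks all leukocytes, had a fitted difference of 1.12 (edgeR adjusted p = 0.0572). The summed level of Ptprc, Coro1a and Lsp1 was 70.4 to 93.1 CPM in control hearts and 109.6 to 141.3 CPM in transferred hearts, and the part of leukocyte content in the troponin values was not tested. In whole tissue, a change in cardiomyocyte number and a change in troponin RNA per cardiomyocyte could not be told apart.

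No batch is labelled. Animal identifiers start with letters for control heart 1 and transferred heart 1, and consist of numbers for the remaining hearts. Within the 5 hearts with numbers alone the log2 fold changes were 0.14 for Tnnt2, 0.02 for Tnni3 and -0.01 for Tnnt1. They were -0.36 for Tnni2, 0.16 for Tnni1 and -0.66 for Tnnt3. There 0 members passed, but so did 0 of all tested genes, so the count of members carries no information. With letters there was 1 control and 1 transferred heart, too few for a test.

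For each tested member, the 3 other genes with the most similar log2 CPM over the 7 hearts are given as a description, picked as the highest of 7667 genes. For Tnnt2 these were Zfp991, Atpif1, which encodes the inhibitor of mitochondrial ATP synthase, and Helz2, with Pearson correlations of 0.98, 0.98 and 0.96. For Tnni3 they were Rpl18, a ribosomal protein gene, Chmp2a and Tmem182, at 0.99, 0.99 and 0.98. For Tnnt1 they were Bhlhe41, a repressor of the circadian clock, Plxdc2 and Rbm43, at 0.96, 0.95 and 0.90. The low members were most like Gm13410, Commd2 and Ebf3 (Tnni2), Fam234b, Ints13 and Lin37 (Tnni1) and Ric3, Zfp853 and Kif5c (Tnnt3), at 0.93 to 0.98. Values for the nearest genes on the map follow. Lad1, between Tnni1 and Tnnt2, measured 10.3 ± 1.46 CPM in control (SD, n = 4) and 15.05 ± 8.48 CPM in transferred hearts (SD, n = 3), where transferred heart 2 alone had 527.5 counts (edgeR adjusted p = 0.537). Ppp1r12c and Dnaaf3, beside Tnnt1 and Tnni3, had log2 fold changes of 0.19 and 0.003, and Mrpl23, beside Tnnt3, of 0.18 (edgeR adjusted p = 0.301). Phlda3, beside Tnni1, and Snx21, beside Tnnc2, had log2 fold changes of 0.11 and -0.17, and Pkp1, beside Tnnt2, had 1 count, in control heart 3.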

How the data were processed

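RNA was sequenced from 4 control and 3 transferred hearts, grouped by the treatment in the labels and numbered in accession order, which only names them. The authors deposited estimated counts per gene over combined exons, not scaled between libraries. Of the values, 4.63% had a fractional part, and counts were rounded to whole numbers. Per the submitters' processing notes, the tools were cutadapt 2.5, STAR 2.7.2b, featureCounts 1.6.4 and DESeq2 1.22.2 with build GRCm38.p6, and settings and strand are not given in the sources used here. The analysed table holds 20343 complete rows and ends partway through chromosome 8 in 1 incomplete row, which was left out. CPM, shares of counts and ranks are therefore relative to these genes and not to the whole transcriptome.

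Genes were filtered with filterByExpr, scaled with TMM and tested with the quasi-likelihood test of edgeR 4.0.16 (robust) in R 4.3.3, with Benjamini-Hochberg adjustment over 7667 genes and a threshold of 0.05. Library totals run from 16402194 to 25190580 counts over the analysed genes only. Differences between ratios (prior count 0.5) were tested by exact permutation, adjusted over 5 ratios. The fit was tested on simulated counts. Alternatives were RLE or total-count scaling, all genes with at least 1 count, DESeq2 1.42.0, limma-voom (limma 3.58.1), unrounded counts, the identifier form as a covariate or restriction, another prior count and leaving out each heart.

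The members, lists and ratios were chosen with earlier results of these data known. Genes named are all 7 members, of each list the 4 most abundant tested genes and any past the threshold, the 3 genes most correlated with each tested member, and the neighbours in the table. Other names were added after their values were seen. Promoter sequences are from RefSeq and transcripts from GENCODE M21.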

Additional observations from a re-analysis of the deposited data

How the results depend on the processing

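The count of members past the threshold, 0, and that of listed genes, 0, were 0 in each of the 15 alternatives of the fit, of which 7 called no gene at all and so say nothing on these counts. Tnnt2 and Tnni1 had log2 fold changes above 0 and Tnni2 below 0 in all 15, and Tnnt3 below 0 in the 13 alternatives that kept it. Tnnt2 ranged from 0.11 to 0.15. Tnnt1 turned to -0.0132 in the hearts with numbers alone. Leaving out each heart gave from 0.000808 (without transferred heart 2) to 0.157 (without transferred heart 3) for Tnnt1, with 0.154 without control heart 3, and from -0.00147 (without transferred heart 1) to 0.177 (without transferred heart 3) for Tnni3. The range was from 0.06 to 0.52 for Tnni1. For the difference in log2 ratio, leaving out each heart gave from -0.16 to 0.46 for Tnni1 to Tnni3, from -0.66 to -0.26 for Tnni2 to Tnni3, from -0.13 to 0.0238 for Tnnt1 to Tnnt2, from -1.47 to -0.26 for Tnnt3 to Tnnt2 and from -0.13 to 0.0332 for Tnni3 to Tnnt2. The sign changed without control heart 3 (Tnni1 to Tnni3, -0.07) or transferred heart 3 (Tnni1 to Tnni3, -0.16, Tnnt1 to Tnnt2, and Tnni3 to Tnnt2). The cause was not tested.

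Over all genes, the 18 past the threshold (10 higher, 8 lower) became 35 (26 higher) with total counts, 81 (66 higher, 15 lower) with all genes of at least 1 count and 250 (190 higher, 60 lower) with DESeq2. They became 0 (0 higher, 0 lower) with limma-voom, with the identifier covariate and in the hearts with numbers alone, where 907, 973 and 1054 genes had an unadjusted p under 0.05. With each heart left out in turn the count lay between 0 and 140 (between 0 and 128 for genes higher, between 0 and 12 for genes lower). The counts were 0 without control heart 1, 2 or 4 or transferred heart 2, 1 without control heart 3, 27 without transferred heart 1 and 140 without transferred heart 3. The share higher was 55.6% with TMM and 74.3% with total counts. No paired analysis was possible because the replicate numbers were given in accession order and only name the hearts. Tnni1 and Tnnt3 had few counts and wide 95% intervals of the log2 fold change. Tnnc2, with still fewer counts, was not tested in the main fit.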
